A study of Arabidopsis thaliana with 22 samples.

Results

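The late embryogenesis abundant (LEA) mRNAs described here are those of *ECP63*, *AT3G53040*, *M17*, *LEA18*, *LEA7* and *AT3G17520*. They are 6 of the 22746 probe sets on the ATH1 array and 6 of the 41 probe sets that could be assigned to the 51 genes of the *Arabidopsis* LEA family. They were picked from results of these same arrays as LEA mRNAs shifted to polysomes, and are those LEA probe sets whose translation state (TL) was at least 2-fold higher in the *pab2 pab8* mutant than in the wild-type. The TL of an mRNA is its signal in polysomal RNA (PL) over its signal in non-polysomal RNA (NP) of the same plants, taken as a difference of log2 signals. The values of PL, NP and TL in both genotypes are therefore given as a description, and only total RNA, which the choice did not use, was tested.

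LEA proteins are small, very hydrophilic proteins that accumulate late in seed maturation, when the embryo acquires desiccation tolerance. They are largely disordered in water, and many fold into helices on drying and protect membranes and enzymes. Their mRNAs are activated in the embryo by abscisic acid (ABA) and the seed regulators around ABI3 and ABI5, are stored in the dry seed, and decline during germination. Poly(A) binding protein (PABP) coats the poly(A) tail and, through contacts with the cap-binding complex, is thought to help ribosomes return to the same mRNA. *Arabidopsis* seedlings express mainly *PAB2*, *PAB4* and *PAB8*.

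Both genotypes were of the Columbia ecotype and were grown side by side for 10 to 12 days at 22°C in continuous light on agar with Murashige and Skoog salts and 1% sucrose, and the aerial parts were harvested. The mutant carries T-DNA insertions in *PAB2* and in *PAB8*, while *PAB4* is intact, so it has reduced rather than no PABP, and it is slightly dwarfed. Each genotype had 4 biological replicates grown at separate times, each giving PL and NP samples by gradient centrifugation, and total RNA was also taken from replicates 1 to 3, for 22 arrays in all. The NP fraction also contains monosomes. The deposited values are log2 signals from RMA (Robust Multi-array Average) normalization, and transcript levels (TC) were compared as the log2 signal of total RNA.

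Signals of *PAB2* in total RNA lay between 10.55 and 11.01 in wild-type and between 4.95 and 5.07 in *pab2 pab8*, and those of *PAB8* between 9.89 and 10.34 and between 5.88 and 6.69 in the same order, as the genotype labels state. *PAB4* lay between 10.07 and 10.29 in wild-type samples and between 9.59 and 9.68 in mutant ones. Array medians were 6.12 to 6.23 for total RNA and 4.68 to 4.99 for PL and NP, so levels were compared within one kind of RNA only. The lowest median, 4.68, belonged to the NP array of mutant replicate 2. The 3 shoot marker probe sets that could be named (*LHCB4.2*, *SBPASE* and *PRK*, of photosynthesis) had a summed log2 signal of 14.35 to 14.49 over all total RNA arrays. Of the root markers *EXPA7* and *EXPA18* the sum was 5.40 to 5.65 in wild-type and 5.09 to 5.31 in *pab2 pab8*, and the seed coat marker *BAN* lay at 3.66 to 3.92. These were the 2 of 7 root markers and 1 of 5 seed coat markers that could be named. Their mean signals, 3.74 to 4.61, were close to the lower quartiles of the total RNA arrays, 4.02 to 4.18, so they say little about these tissues. The RNA is from whole shoots, in which more cells with an mRNA and more mRNA per cell cannot be told apart.

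All 6 mRNAs had a higher signal in the polysomes of the mutant, and all 6 were also higher in its non-polysomal RNA. The difference in PL was 4.07-fold to 21.7-fold, with a median log2 difference of 3.06, and in NP it was 1.88-fold to 4.02-fold, with a median of 1.53. Over all 22746 probe sets these medians were 0.00 in PL and -0.05 in NP, and 0.05 in TL against 1.55 for the 6. The difference in PL had to exceed that in NP, as the TL change by which the mRNAs were chosen is the PL change minus the NP change. The choice did not fix the direction in NP, and for 0 of the 6 was the NP signal lower. Mutant values lay above wild-type values without overlap for 6 of 6 in PL, 6 of 6 in NP and 5 of 6 in TL, where 2.42%, 1.6% and 2.64% of all probe sets did so. The opposite order without overlap was seen in 2.59%, 3.01% and 2.15% of all probe sets and in 0 of the 6. The members were chosen on these same arrays, so these counts describe them and support nothing further.

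**Figure D1:**
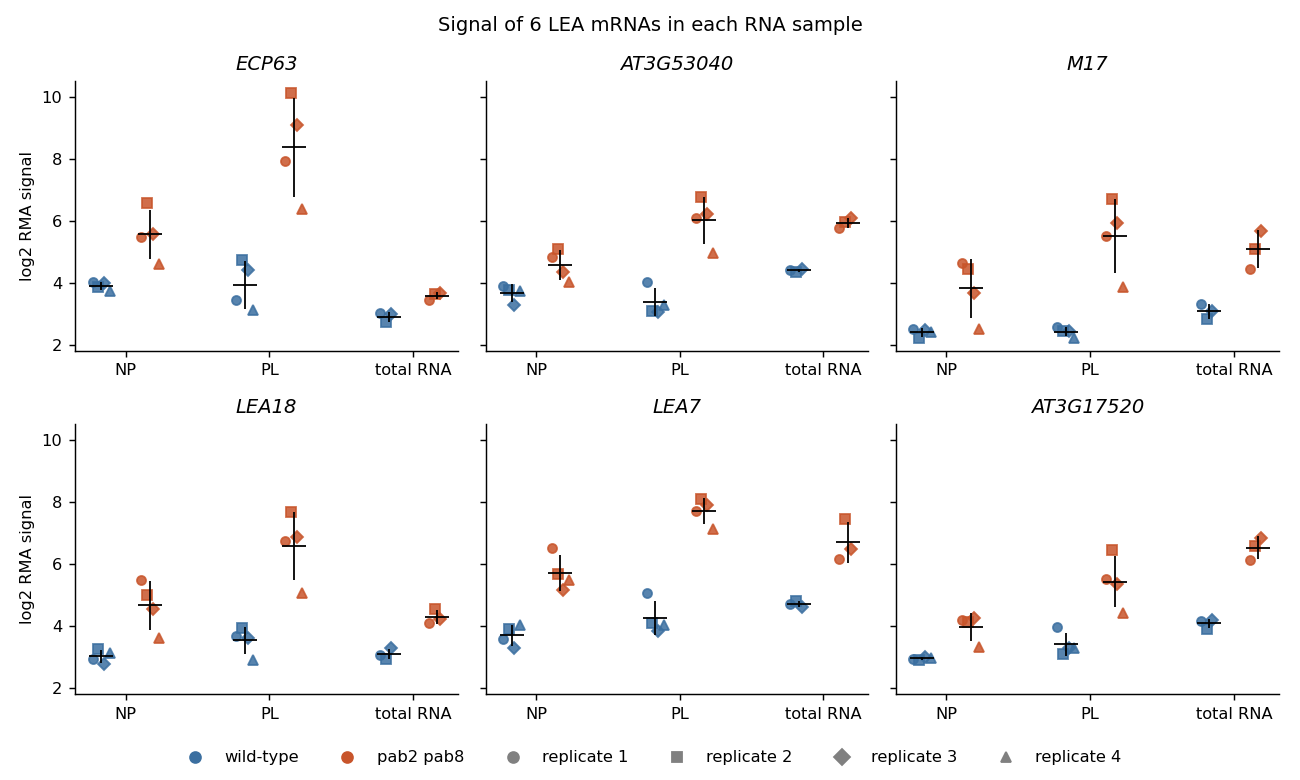
Log2 RMA signal of each of the 6 LEA mRNAs in non-polysomal (NP), polysomal (PL) and total RNA of wild-type (blue) and *pab2 pab8* (orange), with one symbol per replicate and black bars for the mean ± SD. All mutant PL values lie above all wild-type PL values of the same mRNA, and mutant replicate 2 (square) is the highest and replicate 4 (triangle) the lowest of the mutant PL samples for every mRNA.

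*ECP63*, named after a protein of carrot embryogenic cells, belongs to the LEA_4 group, whose members carry tandem motifs that form amphipathic helices. Its PL signal was 3.45, 4.74, 4.44 and 3.12 in wild-type replicates 1 to 4 and 7.92, 10.12, 9.08 and 6.40 in the mutant. This difference of 4.44 on the log2 scale, or 21.7-fold, was the largest of all 22746 probe sets in PL. In NP the signals were 4.02, 3.88, 4.00 and 3.75 in wild-type and 5.48, 6.57, 5.60 and 4.63 in *pab2 pab8*, a difference of 1.66 or 3.15-fold. The probe set of *ECP63* was brighter than an average of 31.6% of all probe sets in wild-type NP and 34.0% in wild-type PL, and than 71.2% to 98.0% in the mutant polysomes. Such ranks depend on the probes as well as on the mRNA. Its TL went from -0.57, 0.86, 0.44 and -0.63 in the wild-type to 2.44, 3.55, 3.49 and 1.77 in the mutant. The 4 wild-type values spread over both sides of 0, but the difference within replicates stayed between 2.40 and 3.05, as replicates with a high wild-type TL also had a high mutant TL. Its TL change of 2.79 was the largest on the array.

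*AT3G53040*, another gene of the LEA_4 group, was the only one of the 6 with more signal in NP than in PL in the mean of the wild-type, at a TL of -0.30 ± 0.34 (SD, n = 4). Its PL signal was 4.05, 3.12, 3.09 and 3.29 in wild-type and 6.11, 6.77, 6.21 and 4.99 in *pab2 pab8*. In NP it was 3.92, 3.78, 3.28 and 3.75 in wild-type and 4.85, 5.10, 4.38 and 4.04 in *pab2 pab8*. The NP difference of 0.91, or 1.88-fold, was the smallest of the 6, and the NP values of replicate 4 differed by 0.29 only. In TL the wild-type had 0.13, -0.66, -0.20 and -0.46 and the mutant 1.26, 1.67, 1.84 and 0.95, a difference of 1.72.

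*M17* belongs to the small AtM group of seed LEA proteins, whose other member is *M10*. Its signal was near the lowest of the wild-type fractions, where on average 1.16% of the probe sets on the NP arrays and 3.09% of those on the PL arrays were dimmer. Wild-type PL signals were 2.59, 2.47, 2.46 and 2.23 and wild-type NP signals 2.52, 2.22, 2.50 and 2.44. At such a level a ratio of both fractions carries little information, and the wild-type TL was 0.02 ± 0.19 (SD, n = 4). In the mutant the PL signals were 5.52, 6.70, 5.94 and 3.88 and the NP signals 4.65, 4.46, 3.68 and 2.53. Replicate 4 stood apart in NP, with a difference between genotypes of 0.09 against 1.18 to 2.24 in replicates 1 to 3. The mutant TL was 0.87, 2.24, 2.26 and 1.35, and all 4 values lay above the highest wild-type value, 0.25. The other AtM gene, *M10*, differed by 0.14 in PL, 0.25 in NP and -0.11 in TL.

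*LEA18*, also called *LEA4-2*, encodes a small protein of the LEA_1 group and is not a member of the PvLEA18 group despite its name. Its PL signal was 3.69, 3.95, 3.63 and 2.93 in wild-type and 6.75, 7.68, 6.87 and 5.06 in *pab2 pab8*, or 8.22-fold higher. In NP it was 2.94, 3.26, 2.78 and 3.16 in wild-type and 5.50, 5.01, 4.57 and 3.64 in *pab2 pab8*, or 3.13-fold higher. TL was 0.75, 0.69, 0.85 and -0.22 in the wild-type, where replicate 4 was low, and 1.25, 2.67, 2.30 and 1.42 in the mutant. The difference within replicates was smallest in replicate 1, at 0.51, where both fractions were higher in the mutant by 3.07 in PL and 2.56 in NP.

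*LEA7*, of the LEA_4 group, encodes a protein that folds into helices when dried. It had the largest NP difference of the 6, at 2.01 on the log2 scale or 4.02-fold, and the second largest in PL, at 3.45 or 10.9-fold. PL signals were 5.07, 4.10, 3.84 and 4.06 in wild-type and 7.71, 8.11, 7.91 and 7.14 in *pab2 pab8*. NP signals were 3.58, 3.91, 3.29 and 4.05 in wild-type and 6.52, 5.70, 5.16 and 5.48 in *pab2 pab8*. *LEA7* was the only one of the 6 whose TL overlapped between genotypes, with 1.49, 0.19, 0.55 and 0.01 in wild-type and 1.18, 2.42, 2.75 and 1.66 in *pab2 pab8*. In replicate 1 its TL was lower in the mutant by 0.30, where the wild-type PL signal and the mutant NP signal were each at their highest, and in the other replicates it was higher by 1.65 to 2.23.

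*AT3G17520*, again of the LEA_4 group, had the smallest TL change of the 6, at 1.01 on the log2 scale. PL signals were 3.98, 3.12, 3.29 and 3.29 in wild-type and 5.52, 6.45, 5.38 and 4.44 in *pab2 pab8*. NP signals were 2.95, 2.92, 3.01 and 2.99 in wild-type and 4.21, 4.14, 4.26 and 3.33 in *pab2 pab8*. The wild-type NP values hardly varied, with an SD of 0.04, while replicate 4 was low in the mutant. TL was 1.03, 0.20, 0.28 and 0.30 in wild-type and 1.30, 2.31, 1.12 and 1.11 in *pab2 pab8*, so that the genotypes were close in replicate 1 and far apart in replicate 2. Without replicate 2 the TL change was 0.64, below the 2-fold by which the mRNA had been chosen. With every replicate kept it was also below 2-fold after median centring of the arrays (0.94) and after quantile normalization (0.92).

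**Figure D2:**
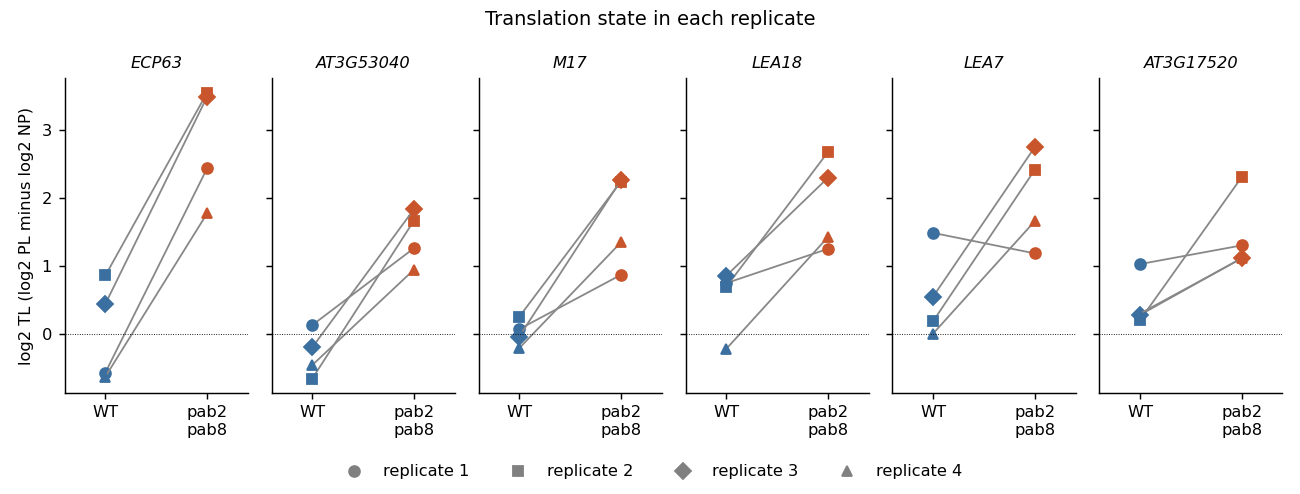
Translation state (log2 PL minus log2 NP) of the 6 LEA mRNAs, with a line joining wild-type and *pab2 pab8* of the same replicate. All lines go up except that of *LEA7* in replicate 1, which goes from 1.49 to 1.18.

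The wild-type means of these mRNAs did not share one place in the range of TL. The mean wild-type TL of the 6 lay between -0.30 (*AT3G53040*) and 0.56 (*LEA7*), above 29.4% to 83.3% of all probe sets, whose quartiles were -0.35 and 0.32. The means of *LEA7*, *LEA18* (0.52) and *AT3G17520* (0.45) were above the upper quartile. For *LEA7* and *AT3G17520* this leaned on wild-type replicate 1. There *LEA7* was at 1.49, against 0.01 to 0.55 in the others, and *AT3G17520* at 1.03, against 0.20 to 0.30. Low signal limits these values. On average only 1.16% (*M17*), 10.3% (*AT3G17520*) and 12.05% (*LEA18*) of the probe sets were dimmer in wild-type NP. Mean TL in the mutant was 1.43 to 2.81, above 98.2% (*AT3G53040*) to 99.98% (*ECP63*) of all probe sets, while the median of all probe sets was -0.10 in wild-type and -0.04 in *pab2 pab8*. Of the LEA family probe sets the one just inside the choice was *AT3G17520*, at a TL change of 1.01, and the ones just outside it were *AT4G13560* at 0.72 and *RAB18* at 0.60.

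Replicates differed in how high these mRNAs stood in the mutant. Of the mutant PL samples, replicate 2 had the highest signal for 6 of 6 mRNAs and replicate 4 the lowest for 6 of 6. In mutant NP replicate 4 was the lowest for 5 of 6, and in mutant total RNA replicate 1 was the lowest of 3 for 6 of 6. Wild-type PL was highest in replicate 1 for 4 mRNAs and in replicate 2 for 2, and wild-type total RNA was lowest in replicate 2 for 5 of 6. The genotype difference in PL accordingly had a median over the 6 mRNAs of 2.79, 3.88, 3.36 and 1.91 in replicates 1 to 4. In TL the smallest difference fell in replicate 1 for 5 of 6 mRNAs, and the medians were 0.65, 2.17, 2.12 and 1.60. Seed storage mRNAs followed the same samples in part. The summed log2 signal of *CRA1*, *CRU3*, *PAP85*, *AT2G28490* and *AT2G18540*, the 5 that could be named, was 7.30, 9.63, 7.82 and 6.42 in mutant PL replicates 1 to 4. In wild-type PL it was 5.33 to 5.74. Such a sum mostly reflects the brightest probe sets. Taken singly, 4 of the 5 were highest in mutant PL replicate 2, while 3 were lowest in replicate 4 and 2 in replicate 3. The part of the seed storage mRNAs in the differences between replicates was not tested.

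Across the 16 PL and NP arrays the 6 mRNAs resembled each other closely, with a Pearson correlation of 0.940 (*LEA7*) to 0.986 (*LEA18*) between each one and the mean of the others. These correlations share the step between genotypes by which the mRNAs were chosen. Outside the 6, the probe sets most like their mean pattern were those of *LTI65*, an ABA-induced dehydration gene (r = 0.969), *CRA1*, a cruciferin (0.967), an unnamed one (0.957), and *TSPO*, an ABA-induced membrane protein (0.957). They were followed by the oleosin gene *AT2G25890* (0.954), the cystatin gene *CYS2* (0.952), the cupin gene *AT2G28490* (0.950) and the seed peroxiredoxin gene *PER1* (0.939). The TL changes of the 7 with a name ranged from 0.41 (*CYS2*) to 1.55 (*AT2G28490*). *CYS2* and *PER1* were higher in NP by 1.98 and 2.95 and in PL by 2.39 and 3.79.

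Total RNA addressed whether these mRNAs also differed in abundance between the genotypes. In total RNA 5 of the 6 were called higher in *pab2 pab8* by limma, at a false discovery rate (FDR) below 0.05 over all probe sets and at least a 2-fold change, and *ECP63* passed the FDR alone. Of all probe sets, 0.435% were called higher under the first criterion and 2.44% passed the FDR alone in this direction. The median log2 TC change was 1.75 over the 6 and -0.03 over all 22746 probe sets. TC was not used in the choice, but it comes from the same plants, and *ECP63* and *LEA7* got their names here from the list of changed genes that accompanies the study.

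*AT3G17520*, with the smallest TL change, had the largest TC change of the 6. Its signal in total RNA was 4.16, 3.92 and 4.21 in wild-type replicates 1 to 3 and 6.14, 6.60 and 6.86 in the mutant, which limma put at 5.40-fold or 2.43 on the log2 scale (FDR = 0.000290, standard error 0.17). *M17* rose from 3.33, 2.86 and 3.09 to 4.47, 5.11 and 5.69, by 1.99 (standard error 0.26, FDR = 0.00583), and *LEA7* from 4.72, 4.81 and 4.64 to 6.16, 7.46 and 6.49, by 1.98 (standard error 0.27, FDR = 0.00674). For both, the mutant samples spread more widely than the wild-type samples, with an SD of 0.61 and 0.67 against 0.23 and 0.09, but the genotypes did not overlap. *AT3G53040* rose from 4.42, 4.35 and 4.46 to 5.78, 5.96 and 6.09, by 1.53 (standard error 0.10, FDR = 0.000262). *LEA18* rose from 3.09, 2.96 and 3.30 to 4.10, 4.55 and 4.23, by 1.18 (standard error 0.14, FDR = 0.00364). On the wild-type total RNA arrays an average of only 6.53% (*M17*) and 6.63% (*LEA18*) of the probe sets were dimmer. Near this floor their fold changes can be understated, which limits the order of the TC changes.

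*ECP63*, first in TL and in PL, had the smallest TC change. Its total RNA signals were 3.02, 2.73 and 2.99 in wild-type and 3.46, 3.64 and 3.68 in *pab2 pab8*, which limma put at 1.60-fold or 0.68 on the log2 scale (FDR = 0.0139, standard error 0.11). On the wild-type total RNA arrays 0.963% to 5.71% of the probe sets were dimmer than *ECP63*, and near this floor a fold change can be understated. On the mutant total RNA arrays 14.5% to 18.2% of the probe sets were dimmer than *ECP63*, and on the mutant PL arrays of all 4 replicates 71.2% to 98.0% were. On the mutant NP arrays the share was 44.9% to 80.2%. In the wild-type it averaged 3.64% in total RNA, 31.6% in NP and 34.0% in PL, so *ECP63* ranked lower in total RNA than in either fraction in both genotypes. For the remaining 5 the averages in the mutant were 28.3% to 57.4% in total RNA, 30.2% to 63.9% in NP and 57.5% to 87.3% in PL. Total RNA and the fractions were measured on separate arrays that lie at different levels, so the gap between them was not tested.

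**Figure D3:**
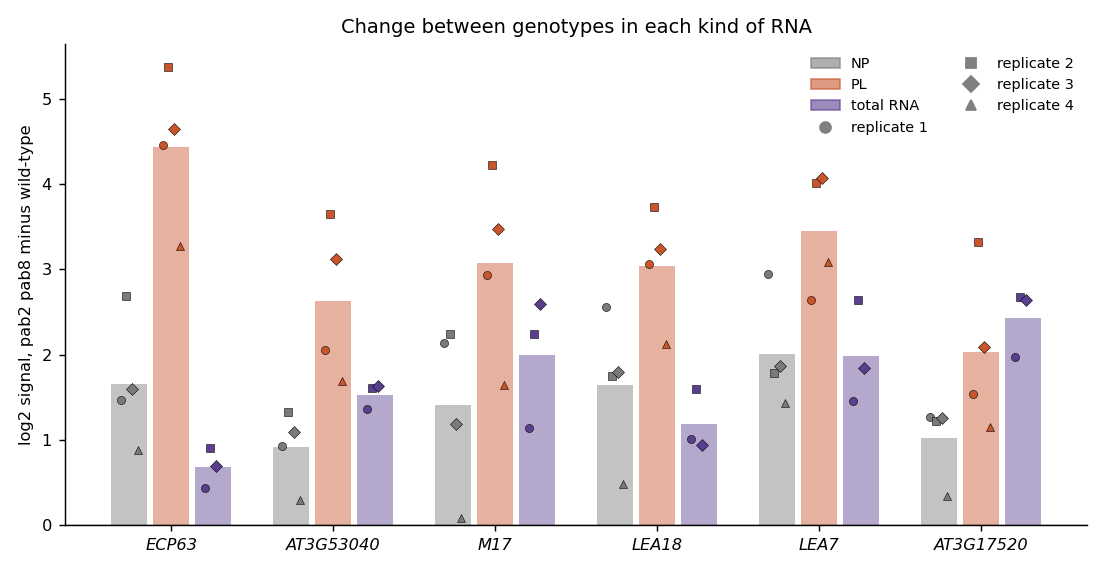
Log2 signal of *pab2 pab8* minus wild-type in NP (grey), PL (orange) and total RNA (purple) for each LEA mRNA, with bars for the mean over replicates and symbols for the single replicates. The PL bar exceeds the NP bar for every mRNA, which the choice by TL fixed in advance. *ECP63* pairs the highest PL bar, 4.44, with the lowest total RNA bar, 0.68, while *AT3G17520* has the highest total RNA bar, 2.43.

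**Figure D4:**
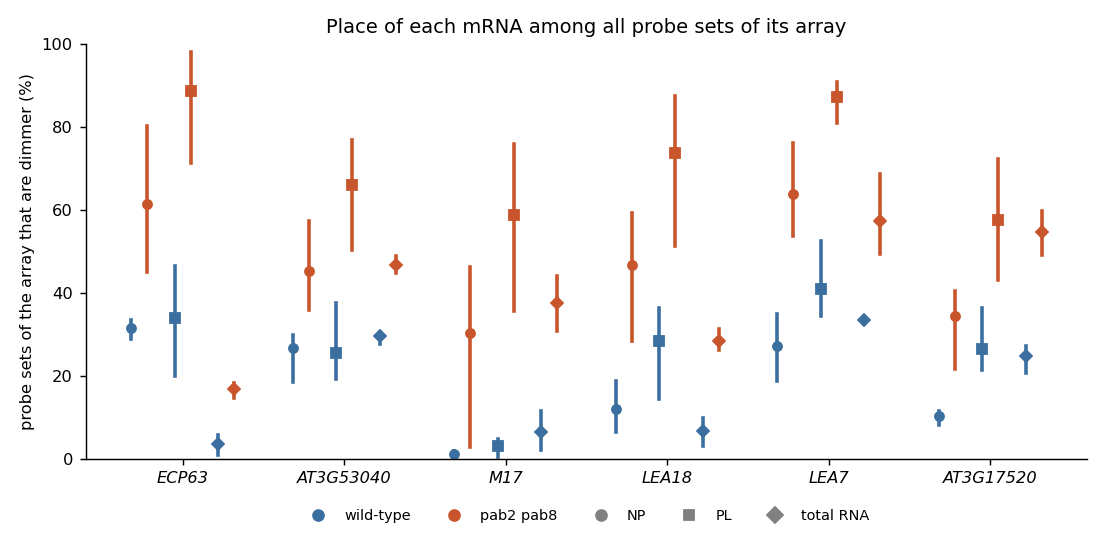
Share of all probe sets on the same array that are dimmer than each LEA mRNA, as the mean (symbol) and range (line) over replicates, for wild-type (blue) and *pab2 pab8* (orange) in NP, PL and total RNA. Wild-type *M17* lies near 0% in NP and PL, and mutant *ECP63* averages 88.6% in PL and 61.3% in NP but 16.7% in total RNA.

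All 6 groups of total RNA values were free of overlap between genotypes, as were 11.7% of all probe sets in this direction, and all 3 replicate pairs were higher in the mutant for each mRNA. An exact two-sided permutation test of 3 against 3 samples cannot give a p below 0.10, so the calls rest on limma's estimate of the spread over all probe sets. Without replicate 2, *M17* had an FDR of 0.107 and *LEA18* a log2 change of 0.97, which left 3 of 6 called, and *ECP63* had an FDR of 0.0656 to 0.113 without any single replicate. In the same total RNA samples 3 of the 5 seed storage probe sets were called higher, against 0.435% of all probe sets. They were *CRA1* (by 3.45), *CRU3* (3.29) and *AT2G28490* (3.12). *CRA1* and *CRU3* got their names from the list of changed genes that accompanies the study, so their calls are not independent of it. *PAP85* (0.56, FDR = 0.0705) and *AT2G18540* (-0.18, FDR = 0.331), named by the annotation table like *AT2G28490*, were not called. The summed log2 signal of the 5 was 6.60 to 6.97 in wild-type and 9.09 to 10.34 in *pab2 pab8*. *LTI65*, the 1 of 16 listed ABA response genes that could be named, also got its name from the list of changed genes. It rose by 1.60 (FDR = 0.000315), a call that is not independent of that list. *EEL*, the 1 of 12 listed embryo regulators that could be named, was at -0.04 (FDR = 0.925). The part of these seed mRNAs in the LEA result was not tested.

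Of 35 further LEA probe sets, 2 were called higher in TC and 1 lower by limma, against 0.435% and 0.101% of all probe sets, while 5 and 1 passed the FDR with no fold criterion, against 2.44% and 1.45%. Of the 31 named by the annotation table, 2 were called higher and 0 lower. The median TC change of the 35 was -0.01, and 15 of the 35 had an unadjusted p under 0.05, as did 4766 of all 22746 probe sets. In TL 0 were called in either direction, where 0.0264% of all probe sets were called higher and 0.0% lower, or 0.0044% lower with no fold criterion, with a median of 0.07 and 6 of the 35 at an unadjusted p under 0.05, against 1966 of all 22746. Across these 35 genes TC and TL changes correlated at r = 0.157 (Spearman's rho = 0.222), as a description of genes measured in the same plants. The 35 exclude the genes with the highest TL by construction, so their TL cannot be set against that of the 6 as a test.

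**Figure D5:**
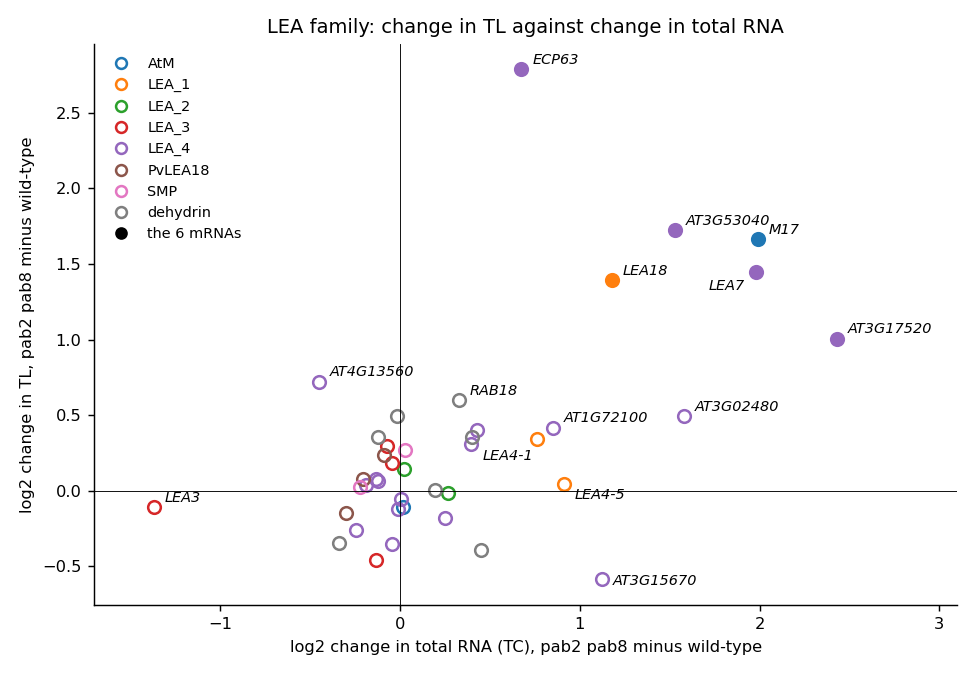
Log2 change in TL against log2 change in total RNA (*pab2 pab8* minus wild-type) for the 41 LEA family probe sets, coloured by LEA group, with the 6 mRNAs as filled circles. *AT3G02480* and *AT3G15670* reach TC changes of 1.58 and 1.12 with TL changes of 0.49 and -0.59.

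Both of the further LEA genes called higher in TC belong to the LEA_4 group, as do *ECP63*, *AT3G53040*, *LEA7* and *AT3G17520*. LEA_4 is also the largest group, with 14 of the 35 further probe sets. *AT3G02480* rose in total RNA by 1.58 (standard error 0.22, FDR = 0.00698 from limma), with differences of 1.42 in NP and 1.91 in PL and a TL change of 0.49 (FDR = 0.564). *AT3G15670* rose in total RNA by 1.12 (standard error 0.17, FDR = 0.0109) but had a TL change of -0.59 (FDR = 0.452), with a mean TL of 1.93 (wild-type) and 1.35 (mutant). Neither was called without replicate 2, with FDRs of 0.0982 and 0.122. Of the 14 further LEA_4 probe sets 3 passed the FDR in TC, all of them higher, against 2.44% of all probe sets in this direction. The third was *AT1G72100*, by 0.85 (FDR = 0.0417). The median TC change of the 14 was -0.0018, with 7 of them above 0.

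The LEA_1 group, to which *LEA18* belongs, has both of its other members on the array. *LEA4-5*, which contributes to drought tolerance in seedlings, rose in total RNA by 0.91 (FDR = 0.00116 from limma), with a TL change of 0.04 and differences of 0.07 in NP and 0.11 in PL. *LEA4-1* rose by 0.76 (FDR = 0.0154) and was higher in NP by 1.72 and in PL by 2.06, which gave a TL change of 0.34 (FDR = 0.689). In NP *LEA4-1* thus differed about as much as *LEA18*, at 1.65, and in PL less than *LEA18*, at 3.04.

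*LEA3*, of the LEA_3 group, was the one LEA mRNA called lower in TC, by -1.37 (FDR = 0.0339 from limma). Its FDR was 0.192 without replicate 1 and 0.106 without replicate 2. *LEA3* got its name here from the list of changed genes that accompanies the study, so its call is not independent of that list. The 7 dehydrins, a group of LEA proteins induced by cold and drought, had 0 passing the FDR in TC. Of all probe sets, 2.44% passed it as higher and 1.45% as lower. Of the 7, 3 had an unadjusted p under 0.05, against 4766 of all 22746 probe sets, and the median TC change was 0.19. *AT1G54410*, a dehydrin, was at 0.45 (FDR = 0.0814), and the LEA_4 genes *AT4G21020* and *AT2G42560* were at 0.43 (FDR = 0.0615) and 0.40 (FDR = 0.0842). *AT4G13560*, next to the 6 in TL, differed by -1.06 in NP and -0.33 in PL, so that its TL change of 0.72 (FDR = 0.514) came with a lower signal in both fractions, unlike that of the 6.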

How the data were processed

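RNA samples were hybridized to ATH1 arrays, 1 array each. Signals were extracted by the authors with the affy package and normalized with RMA, and the deposited values are log2 signals (tool versions: not given in the sources used here). The authors' deposited table of log2 TL served as an alternative, in which the fourth replicate is numbered 5, and its 16 other columns were not used. The number of arrays limits the precision.

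TC (3 against 3 samples) and TL (4 against 4) were fitted over all 22746 probe sets in R 4.3.3 by limma 3.58.1 (genotype only, lmFit then eBayes) and adjusted by Benjamini-Hochberg. The fits were tested on simulated data. Other values and figures were made with Python 3.11.15, pandas 2.3.3, numpy 2.4.6 and matplotlib 3.10.9.

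The members, the gene lists and the tests were chosen with earlier results of these data known. The text names the 6 members, LEA genes called in TC and 6 more with the smallest p, called members of other lists or the 2 with the smallest p, and the 8 most alike probe sets. *M10*, *RAB18* and *AT4G13560* were added after their values were seen. Names came from the array's annotation table (13513 probe sets) or, for names only, from the paper's tables (499), while 503 have several genes and 8231 are unnamed here. LEA groups were assigned from general knowledge of the family.

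Labels say that genotypes were grown together and replicates at different times, which pairs samples of equal number. Deviations from group means correlated between equal numbers, across probe sets, at r = -0.164, -0.0572 and 0.211 in TC and 0.0660, 0.0931, 0.0525 and 0.135 in TL. Alternatives were a block for the replicate number, an eBayes trend, probe sets brighter than the median alone, median centring, quantile normalization, no fold criterion and without each replicate.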

Additional observations from a re-analysis of the deposited data

Results flagged for a closer look

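Of the 36 groups of 4 samples (NP, PL and TL of the 6 mRNAs in each genotype), 4 held a sample far from the others by Dixon's test. Chance flags about 1 in 20 groups, and these groups share arrays. Wild-type replicate 4 had a *LEA18* TL of -0.22, against 0.69 to 0.85 in the others. Wild-type replicate 1 had an *AT3G17520* TL of 1.03, against 0.20 to 0.30. Mutant replicate 2 had an *AT3G17520* TL of 2.31, against 1.11 to 1.30, and mutant replicate 4 an *AT3G17520* NP signal of 3.33, against 4.14 to 4.26.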

How the results depend on the processing

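With the replicate number as a block 5 of the 6 mRNAs were called higher in TC, as in the reported fit, and 106 of all probe sets were called higher and 24 lower, so the block changed none of the calls given for these mRNAs. The same 5 calls were counted with a trend, with arrays centred on their median and with quantile normalization. With only the probe sets brighter than the median 0 of the 6 were called, because all 6 leave the test, and the further LEA genes called higher fell to 1, all probe sets called higher in TC to 58 and in TL from 6 to 2. With no fold criterion 555 of all probe sets were higher and 330 lower in TC, 1 was lower in TL, and 5 further LEA genes were higher in TC. Probe sets called lower in TL numbered 2 with median centring and 1 with quantile normalization, against 0. With names from the annotation table alone (an alternative added after the data were seen) 0 further LEA genes were called lower in TC. Without single replicates the counts in TC ranged from 3 to 5 for the 6 mRNAs, from 33 to 149 for all probe sets higher and from 15 to 20 for those lower, against 99 and 23, and from 0 to 2 and 0 to 1 for further LEA genes higher and lower. In TL they ranged from 0 to 8 for all probe sets higher. The cause was not tested. Without single replicates the TL change ranged from 2.70 to 2.91 for *ECP63*, 1.18 to 2.03 for *LEA7* and 0.64 to 1.25 for *AT3G17520*. Low signal limits the wild-type TL, above all that of *M17*.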
